A study of Equus caballus with 10 samples.

Results

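Glycolysis and the cellular response to low oxygen were followed through 40 genes in equine tenocytes, the cells of tendon. The genes were listed by symbol for their roles in these pathways, with earlier results of these data known. No expression threshold entered the choice, and all 40 were found among the 29196 genes of the deposited table. RNA was sequenced from primary tenocytes of 5 horses, called lines 1 to 5, each isolated from the superficial digital flexor tendon and grown in 3D collagen gels for 14 days. Every line gave 1 library to each of 2 groups. In the first group (PF-06650833 alone) the cells were given PF-06650833, which blocks the kinase IRAK-4, at 100 nM each day. In the second group (IL-1β plus PF-06650833) they received the same inhibitor together with the inflammatory cytokine IL-1β at 17 ng/ml every 3 to 4 days. Both groups therefore carry the inhibitor, and the comparison asks what IL-1β changed in its presence. Cells without the inhibitor were not analysed here, so no effect of PF-06650833 itself can be read from these values.

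Glycolysis converts glucose to pyruvate, which is either passed to the mitochondria or reduced to lactate and exported. Its rate is set largely at the phosphofructokinase step, where the PFKFB enzymes make the activator fructose 2,6-bisphosphate. When oxygen is low, the HIF-α proteins, encoded by HIF1A and EPAS1, escape hydroxylation by the EGLN enzymes, accumulate, and induce glucose transporters, glycolytic enzymes and angiogenic factors. Inflammatory signals that act through NFκB are also known to raise HIF1A transcription, and tendon is a poorly vascularised tissue.

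Expression is given as the log2 values that the authors deposited, which are variance-stabilized and already normalized between libraries. On this scale 1 unit is a doubling for well expressed genes, and a gene without reads has the value 3.43 in every library. Levels are compared between libraries for the same gene and not between genes, since the scale takes no account of transcript length. The labels state a depth of 31.2 to 41.4 M reads per sample. A gene was called differentially expressed where limma, run over all 17992 genes tested, gave an adjusted p below 0.05 together with a log2 fold change of 1 or more in size, and all 40 members were tested. Because the libraries of the 2 groups come in pairs from the same horses, the fit with the replicate number (the line) as a block is given where it changes a call.

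All 10 listed IL-1β response genes, such as IL6 and CXCL8, were higher in the IL-1β library of every line. That list was chosen with earlier results of these data known, so it is no independent check of the treatment. Of 13 tested markers of tenocytes and fibroblasts, 3 were lower and 0 higher (6 lower with the replicate block), and their summed level, as log2 of normalized counts, ranged from 20.2 to 20.8 without IL-1β and from 18.8 to 20.5 with it. TNMD, a defining tenocyte marker, was at the value of no reads in all 10 libraries. Of 10 leukocyte markers 5 could be tested and 1 was higher, the lysosomal gene CD68, while PTPRC, the defining leukocyte gene, stayed at or below a normalized count of 3.09. The summed leukocyte level was 7.79 to 11.0 and 8.43 to 11.1 in the respective groups, with CD3E and AIF1 at 0 reads throughout. Of 9 endothelial markers 5 were tested and 0 were called by limma with or without the block (2 had an unadjusted p below 0.05 without the block, both higher, and 2 with it, both lower), with summed levels of 4.48 to 5.65 and 3.50 to 5.44. Of 8 skeletal muscle markers 3 were tested and 1, DES, was lower (2 lower with the block), with summed levels of 7.27 to 10.7 and 4.89 to 7.38. Among all genes tested, 3.11% were called higher and 3.57% lower, and with the block 4.01% and 4.25%. The part of these markers in the results below was not tested. In bulk libraries such as these, fewer cells of a type and less RNA per cell cannot be told apart.

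With IL-1β plus PF-06650833, 5 of the 40 members (12.5%) were differentially expressed, against 6.68% of all genes tested, and all 5 were higher, where 3.11% of all genes were called higher and 3.57% lower. They were PDK4, EPAS1, PFKFB3, EGLN3 and VEGFA. With the replicate block ADM was added, giving 6 members (15%), all higher, against 8.26% of all genes (4.01% higher and 4.25% lower). No member was called lower by limma (0 in either fit), while 2 lower members had an unadjusted p below 0.05 without the block and 7 with it. The count fell to 3 without line 1, 4 or 5 of PF-06650833 alone, without line 1 or 3 of IL-1β plus PF-06650833, or without both libraries of line 1, 2 or 5, through the loss of EGLN3 and VEGFA, which are described below. Without the minimum fold change, 10 members (25%) passed an adjusted p below 0.05, 9 higher and 1 lower, against 15.5% of all genes (7.57% higher and 7.89% lower). With the block 18 members (45%) passed, 14 higher and 4 lower, against 22.2% of all genes (10.9% higher and 11.3% lower). Over the 40 members the log2 fold change had a median of 0.14, and over all genes tested one of -0.01. The groups did not overlap for 8 members (20%), 7 of them higher and 1 lower, against 12.7% of all genes (6.29% higher and 6.41% lower). The 25 glycolysis members had 2 calls (8%) and a median of 0.21, and the 15 hypoxia-response members had 3 calls (20%) and a median of 0.11, against the 6.68% of all genes. These shares describe a list that was chosen with earlier results of these data known, and they were not tested against other genes.

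**Figure D1:**
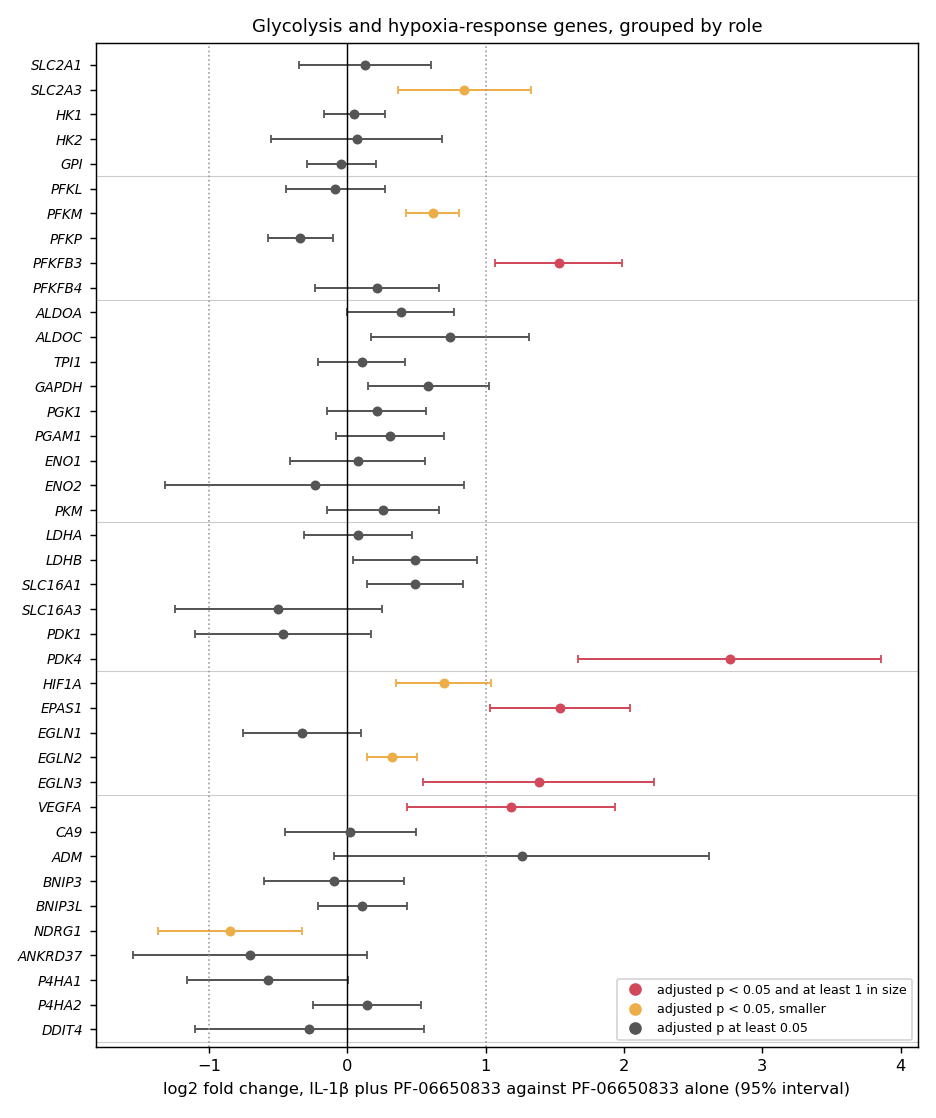
Log2 fold change (points) with its 95% interval (bars) from limma for each of the 40 members, with IL-1β plus PF-06650833 against PF-06650833 alone, grouped from top to bottom as glucose entry, the phosphofructokinase step, lower glycolysis, pyruvate and lactate handling, HIF subunits and their hydroxylases, and hypoxia-induced genes. The intervals are from the fit without the replicate block, so their width includes differences between lines. The 5 called members (red) lie above 1, as does ADM with its wide interval. The 25 glycolysis members, 2 of them called, have a median of 0.21, with 19 above 0 and 6 below.

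Among the HIF subunits, EPAS1, which encodes HIF-2α, rose 2.91-fold. Its log2 expression in lines 1 to 5 was 11.78, 12.48, 12.85, 12.06 and 11.86 with PF-06650833 alone and 13.59, 13.83, 13.92, 14.19 and 13.20 with IL-1β plus PF-06650833. Every library with IL-1β was above every library without it. The log2 fold change was 1.54 (standard error 0.23, adjusted p = 0.0017 from limma), and the rise within a line ran from 1.08 in line 3 to 2.12 in line 4.

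HIF1A, which encodes HIF-1α, also did not overlap between the groups but changed less. It stood at 15.53, 15.03, 15.40, 15.20 and 15.16 in lines 1 to 5 with PF-06650833 alone and at 16.10, 15.76, 15.94, 16.14 and 15.86 with IL-1β plus PF-06650833. The change of 0.70 on the log2 scale (standard error 0.15, adjusted p = 0.0125 in limma) passed the p threshold and fell short of the minimum fold change. Within every line EPAS1 rose more than HIF1A, and the difference HIF1A minus EPAS1 changed by -0.84 ± 0.33 (SD, n = 5), a description that was not tested.

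The prolyl hydroxylases that mark HIF-α for destruction had log2 fold changes from -0.33 to 1.38, and no test compared them with each other. EGLN3, itself a well known HIF target, rose 2.61-fold (log2 fold change 1.38, standard error 0.38, adjusted p = 0.0313 from limma). In lines 1 to 5 its values were 9.64, 10.04, 9.62, 9.48 and 9.28 with PF-06650833 alone, and 11.56, 11.54, 11.39, 9.33 and 11.18 with IL-1β plus PF-06650833. Lines 1, 2, 3 and 5 rose by 1.49 to 1.92, whereas line 4 changed by -0.15 and kept its IL-1β library within the range of the other group. Without that library the log2 fold change was 1.80 (adjusted p = 1.14e-04 from limma). The call was lost when any of 8 other single libraries was left out, namely lines 1, 3, 4 or 5 with PF-06650833 alone or lines 1, 2, 3 or 5 with IL-1β plus PF-06650833, with log2 fold changes of 1.24 to 1.39.

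EGLN2 was higher in all 5 lines by a small amount. Its values were 11.19, 11.50, 11.37, 11.41 and 11.39 against 11.82, 11.65, 11.74, 11.60 and 11.65 with IL-1β, without overlap (log2 fold change 0.32, adjusted p = 0.0216 from limma). With the block and any 1 line left out, the adjusted p of EGLN2 from limma was 0.0504 to 0.137. EGLN1, the main oxygen sensor of the family in most cells, had a log2 fold change of -0.33 with a 95% interval of -0.75 to 0.10. It was lower in 5 of 5 lines by 0.04 to 0.68 (adjusted p = 0.294 without and 0.079 with the block, from limma). The difference EGLN3 minus EGLN1 changed by 1.71 ± 1.01 (SD, n = 5). It rose in 4 lines and fell in 1, by 0.05, and was not tested.

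**Figure D2:**
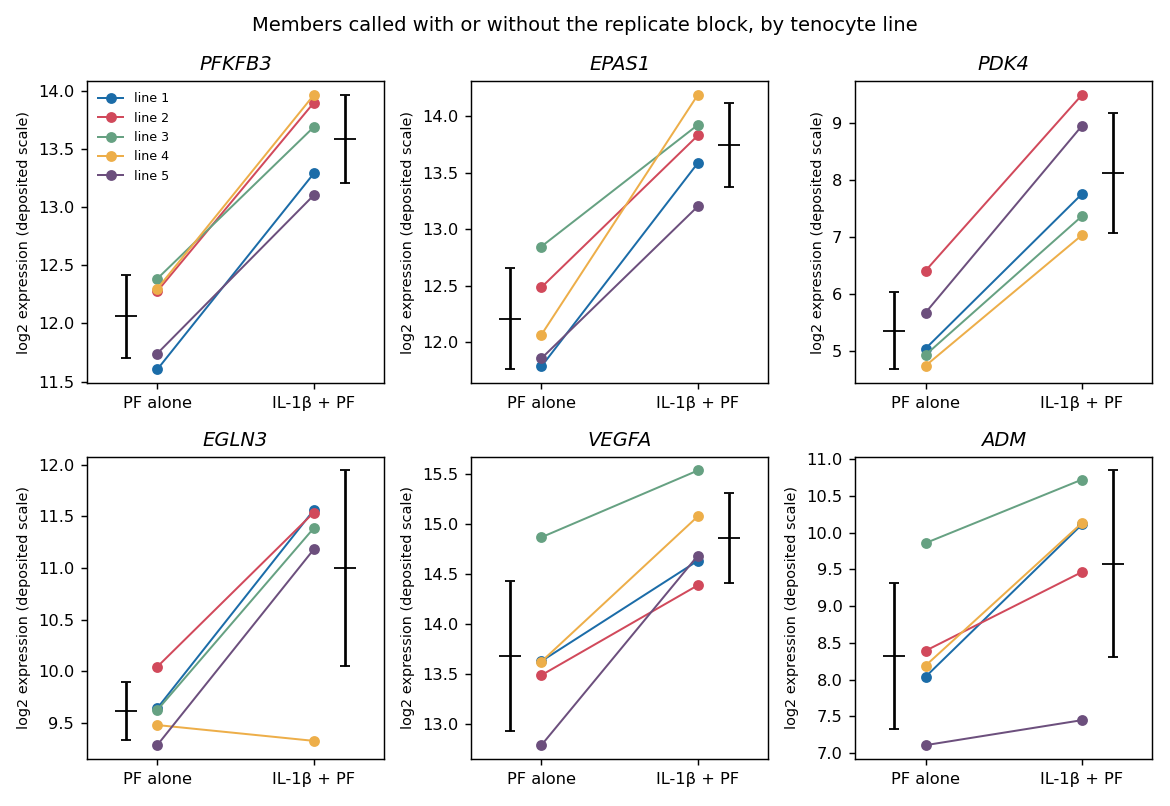
Log2 expression of the 6 members called with or without the replicate block, with 1 coloured point per library, a line joining the 2 libraries of each horse, and black bars for the group mean and SD (n = 5). PFKFB3, EPAS1 and PDK4 rise in all 5 lines without overlap of the groups, EGLN3 rises in all lines but line 4, and ADM starts from levels that differ widely between lines.

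The hypoxia-induced genes did not move as a set: 5 of 10 had positive and 5 negative log2 fold changes, with a median of -0.04, and CA9 changed sign under quantile normalization. VEGFA, the principal angiogenic factor of this response, rose 2.27-fold. Its values were 13.63, 13.49, 14.87, 13.63 and 12.79 with PF-06650833 alone and 14.64, 14.39, 15.54, 15.08 and 14.69 with IL-1β plus PF-06650833. All lines rose, by 0.67 to 1.90, and the groups overlapped because line 3 was high in both. The log2 fold change was 1.18 (standard error 0.34, adjusted p = 0.0384 from limma). The call was lost without any 1 of 8 libraries, lines 1, 2, 4 or 5 with PF-06650833 alone or lines 1, 3, 4 or 5 with IL-1β plus PF-06650833 (log2 fold changes 0.96 to 1.24), while with the replicate block it held (adjusted p = 0.00394 from limma) and stayed with any line left out.

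ADM, which encodes the vasodilator peptide adrenomedullin, was at 8.04, 8.39, 9.86, 8.19 and 7.11 without IL-1β and at 10.11, 9.47, 10.72, 10.13 and 7.45 with it. Line 3 was the highest and line 5 the lowest in each group, so the groups overlapped although every line had the higher value with IL-1β, by 0.34 to 2.08. The log2 fold change of 1.26 was not called without the block (adjusted p = 0.2 from limma) and was called with it (adjusted p = 0.012 from limma). Without the IL-1β library of line 5, the unblocked fit called it as well, with a log2 fold change of 1.79 (adjusted p = 0.0338 from limma).

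NDRG1, a stress-responsive gene strongly induced by hypoxia, went the other way. It was at 13.71, 14.10, 13.47, 14.09 and 13.73 with PF-06650833 alone and at 13.29, 12.76, 13.37, 13.33 and 12.14 with IL-1β plus PF-06650833, so that the groups did not overlap. It was 1.80-fold lower (log2 fold change -0.85, standard error 0.24, adjusted p = 0.0345 from limma), short of the minimum fold change, and its adjusted p from limma reached 0.0846 when single libraries were left out. The largest within-line differences were in lines 5 (-1.60) and 2 (-1.35) and the smallest was in line 3 (-0.11). Without both libraries of line 3 it was called, at a log2 fold change of -1.03. ANKRD37, an ankyrin repeat gene known as a direct HIF-1 target, was at 8.59, 8.96, 8.65, 8.19 and 7.60 and, with IL-1β, at 8.31, 7.69, 8.61, 7.30 and 6.56. It was lower in all 5 lines and passed the p threshold with the block alone (log2 fold change -0.70, adjusted p = 0.25 without and 0.0429 with it, from limma).

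The remaining hypoxia-induced members had adjusted p-values above 0.05 from limma in both fits. CA9, the carbonic anhydrase used as a tissue marker of hypoxia, was at 10.45 to 11.29 without IL-1β and at 10.39 to 11.50 with it, and its 95% interval was -0.45 to 0.50. The mitophagy receptors BNIP3 and BNIP3L had log2 fold changes of -0.10 (interval -0.60 to 0.41) and 0.11 (interval -0.21 to 0.43). The collagen prolyl hydroxylase subunit P4HA1 was lower in all 5 lines, by 0.10 to 1.38 (adjusted p = 0.174 without and 0.0573 with the block, from limma). It had a log2 fold change of -0.58 (interval -1.16 to 0.01). P4HA2, the alternative catalytic subunit, had one of 0.14. DDIT4, an inhibitor of mTORC1 signalling, had a log2 fold change of -0.27 (interval -1.10 to 0.55). Its standard error was 0.38 without the block and 0.16 with it.

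At the phosphofructokinase step, PFKFB3 rose 2.88-fold in all lines. It was at 11.60, 12.28, 12.38, 12.30 and 11.74 with PF-06650833 alone and at 13.29, 13.90, 13.69, 13.96 and 13.10 with IL-1β plus PF-06650833. The groups stood 0.72 apart at their nearest libraries. The log2 fold change was 1.53 (standard error 0.21, adjusted p = 0.00106 from limma), and the rise within a line, 1.30 to 1.68, varied little. PFKFB4, a second enzyme with this activity, was at 6.91 to 7.73 and 7.25 to 7.87, with a log2 fold change of 0.21 (interval -0.24 to 0.67).

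The phosphofructokinase subunits themselves shifted in opposite directions by less than a doubling. The muscle-type subunit PFKM was at 10.67, 10.76, 10.52, 10.52 and 10.66, and at 11.30, 11.30, 11.06, 11.37 and 11.20 with IL-1β, with no overlap (log2 fold change 0.62, standard error 0.09, adjusted p = 0.00124 from limma). The platelet-type subunit PFKP was at 13.06, 13.14, 12.92, 13.37 and 13.25, and at 12.95, 12.75, 12.60, 12.89 and 12.82 with IL-1β, lower in all 5 lines (log2 fold change -0.34, adjusted p = 0.053 without and 0.0283 with the replicate block, from limma). The difference PFKP minus PFKM fell by 0.96 ± 0.22 (SD, n = 5) on the log2 scale, by between 0.73 and 1.31 in each line. The liver-type subunit PFKL had a log2 fold change of -0.09 (interval -0.44 to 0.27).

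In glucose uptake, neither transporter was called, but the high-affinity SLC2A3 passed the p threshold, short of the minimum fold change, and the widely expressed SLC2A1 did not pass it. SLC2A3 was at 12.12, 12.43, 12.10, 11.84 and 11.61 with PF-06650833 alone and at 12.94, 13.09, 13.43, 12.68 and 12.20 with IL-1β plus PF-06650833. Every line rose, by 0.59 to 1.32, and the groups overlapped through line 5 (log2 fold change 0.85, standard error 0.22, adjusted p = 0.0241 from limma). Without the IL-1β library of line 5 the log2 fold change reached 1.01 and the gene was called, and over the leave-out fits its adjusted p from limma reached 0.0966. SLC2A1 had a log2 fold change of 0.13 (interval -0.35 to 0.60), and within every line the difference SLC2A1 minus SLC2A3 fell, by 0.72 ± 0.28 (SD, n = 5).

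The hexokinases HK1 and HK2, which trap glucose as its phosphate, had log2 fold changes of 0.05 and 0.07, and GPI, the next enzyme, one of -0.04. For all 3 the 95% interval lay between -0.55 and 0.69. The sign for HK1 turned under quantile normalization, and those of HK2 and GPI turned when some single libraries were left out, so no direction can be given for them.

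Of the 9 genes of lower glycolysis limma called 0 with or without the block, while 3 had an unadjusted p below 0.05 in each fit. In 8 of 9 the log2 fold change was positive, with a median of 0.26, and 5 (ALDOA, ALDOC, GAPDH, PGK1 and PKM) were higher in all 5 lines, where 16.0% of all genes were. ALDOC, the aldolase better known from brain, was at 12.03, 11.64, 11.76, 12.02 and 11.25, and at 13.01, 12.16, 13.04, 12.54 and 11.67 with IL-1β (log2 fold change 0.74, adjusted p = 0.0776 without and 0.00847 with the replicate block, from limma). GAPDH, which is often taken as a constant reference gene, was at 16.67, 16.31, 16.45, 16.70 and 16.42 with PF-06650833 alone and at 17.33, 17.15, 16.82, 17.06 and 17.12 with IL-1β plus PF-06650833. Its groups did not overlap (log2 fold change 0.59, adjusted p = 0.0704 without and 0.0389 with the block, from limma). ENO2, the neuronal enolase, spread most, from 12.17 to 13.94 and from 11.05 to 13.83. Its interval was -1.32 to 0.84 (standard error 0.49 without the block and 0.20 with it). It was higher in 2 lines and lower in 3, so its direction is undetermined. The log2 fold changes of TPI1, PGK1, PGAM1, ENO1, PKM and ALDOA lay between 0.07 and 0.39. Several of these enzymes, GAPDH among them, have processed pseudogenes in mammalian genomes to which reads can be assigned, so their values are less certain.

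At the fate of pyruvate, PDK4, a kinase that switches off pyruvate dehydrogenase, had the largest log2 fold change of the 40 members. It was at 5.03, 6.40, 4.92, 4.73 and 5.66 with PF-06650833 alone and at 7.75, 9.49, 7.36, 7.03 and 8.95 with IL-1β plus PF-06650833. Every line rose by 2.29 to 3.28 and lines 2 and 5 were the highest in each group. The log2 fold change was 2.76 (standard error 0.50, adjusted p = 0.00439 from limma), a 6.79-fold rise. It is understated on this scale, because normalized counts were only 9.36 to 64.3 with PF-06650833 alone, and on log2(normalized count + 1) values it was 3.55. PDK1, the family member induced by HIF-1, was instead at 13.21, 12.33, 12.44, 13.05 and 12.23 and, with IL-1β, at 13.04, 11.98, 12.21, 12.30 and 11.39. It was lower in all 5 lines, with a log2 fold change of -0.47 that passed the p threshold with the block alone (adjusted p = 0.315 without and 0.0312 with it, from limma).

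LDHA, which makes lactate, had values of 15.72 to 16.27 without IL-1β and of 15.69 to 16.31 with it, and a log2 fold change of 0.08 (interval -0.31 to 0.47). LDHB, the subunit that favours the reverse reaction, was at 12.63, 12.49, 11.98, 12.50 and 12.69, and at 13.13, 13.13, 12.47, 12.52 and 13.47 with IL-1β. All 5 lines were higher, line 4 by 0.03 (log2 fold change 0.49, adjusted p = 0.136 without and 0.0222 with the block, from limma). The lactate transporter SLC16A1 was at 11.90, 11.59, 12.46, 12.11 and 11.55, and at 12.51, 12.45, 12.41, 12.33 and 12.37 with IL-1β. It was higher in 4 lines and changed by -0.05 in line 3 (log2 fold change 0.49, adjusted p = 0.0591 without and 0.0461 with the block, from limma). In the blocked fits without a line, its adjusted p from limma reached 0.148. The SD between lines was 0.38 without IL-1β and 0.07 with it, a description that was not tested. The exporter SLC16A3, a HIF-1 target, had a log2 fold change of -0.50 (interval -1.25 to 0.25), with differences from 0.11 in line 1 to -1.30 in line 5.

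**Figure D3:**
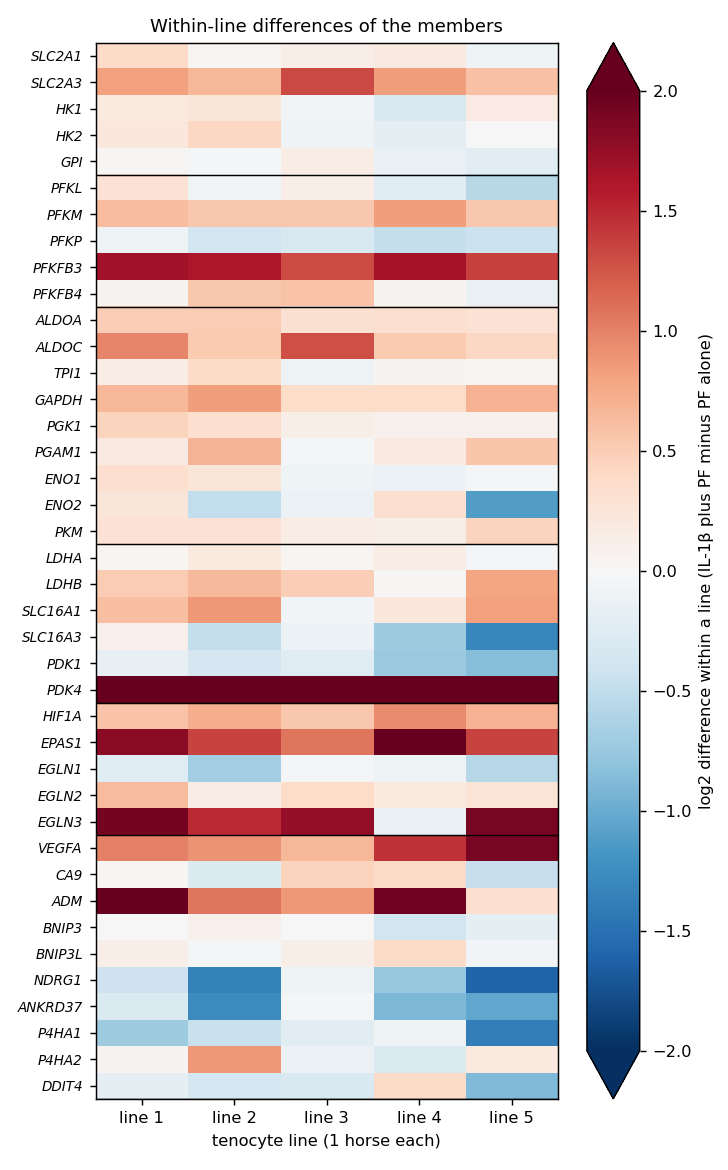
Difference in log2 expression within each of the 5 lines (IL-1β plus PF-06650833 minus PF-06650833 alone) for the 40 members, in the order and groups of the fold change plot, with the colour scale full at 2 in either direction. PFKFB3, PDK4 and EPAS1 are red in all lines, EGLN3 is pale in line 4, and the bluest cells of NDRG1, P4HA1, SLC16A3 and ENO2 fall in line 5 and that of ANKRD37 in line 2.

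For 20 of the 40 members (50%) more than 50% of the variance over the 10 libraries lay between lines, a share close to the 44.7% of all genes tested. The line share had a median of 51.7% over the members and 45.8% over all genes. With 4 of 9 degrees of freedom between lines it averages 44.4% where neither lines nor groups differ, and less where the groups differ. The share between the groups had a median of 26.2% over the members and 19.1% over all genes. As the line shares are close to those of all genes, they are no result about the members. Among single genes it was highest for HK2 (93.9%), BNIP3 (92.8%), SLC2A1 (91.9%) and LDHA (91.7%), 4 genes with little difference between the groups. It was lowest for EGLN2 (2.36%) and PFKM (6.28%). Line 5 had the lowest value of 23 members (57.5%) with PF-06650833 alone, against 15.5% of all genes. In the group that also received IL-1β it was lowest for 23 members (57.5%), against 23.6% of all genes. It was lowest in both for 16 members (40%), against 6.22% of all genes. Those 16 include SLC2A1, SLC2A3, HK2, ENO1, LDHA, BNIP3 and DDIT4. The 40 genes share the same libraries, so this is a description of 1 horse and carries no test.

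The other genes of these pathways were taken from lists of symbols. The 37 tested further hypoxia-induced genes had a median log2 fold change of -0.03. Of them 8 were called, 4 higher and 4 lower, against 6.68% of all genes. With the replicate block 11 were called, 6 higher and 5 lower, against 8.26% of all genes. By smallest adjusted p they were led by BHLHE41, a circadian repressor induced by HIF (log2 fold change 1.48, higher in 5 of 5 lines), LOXL2 (-1.68, lower in 5 lines), STC2 (-1.71, lower in 5 lines) and NOS2 (5.03, higher in 5 lines), with adjusted p-values from limma of 1.86e-04 to 0.00592. LOXL2 cross-links collagen, STC2 encodes a secreted glycoprotein and NOS2 makes nitric oxide and is also a classical target of inflammatory signals. NOS2 was at the value of no reads in lines 2 and 5 with PF-06650833 alone.

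**Figure D4:**
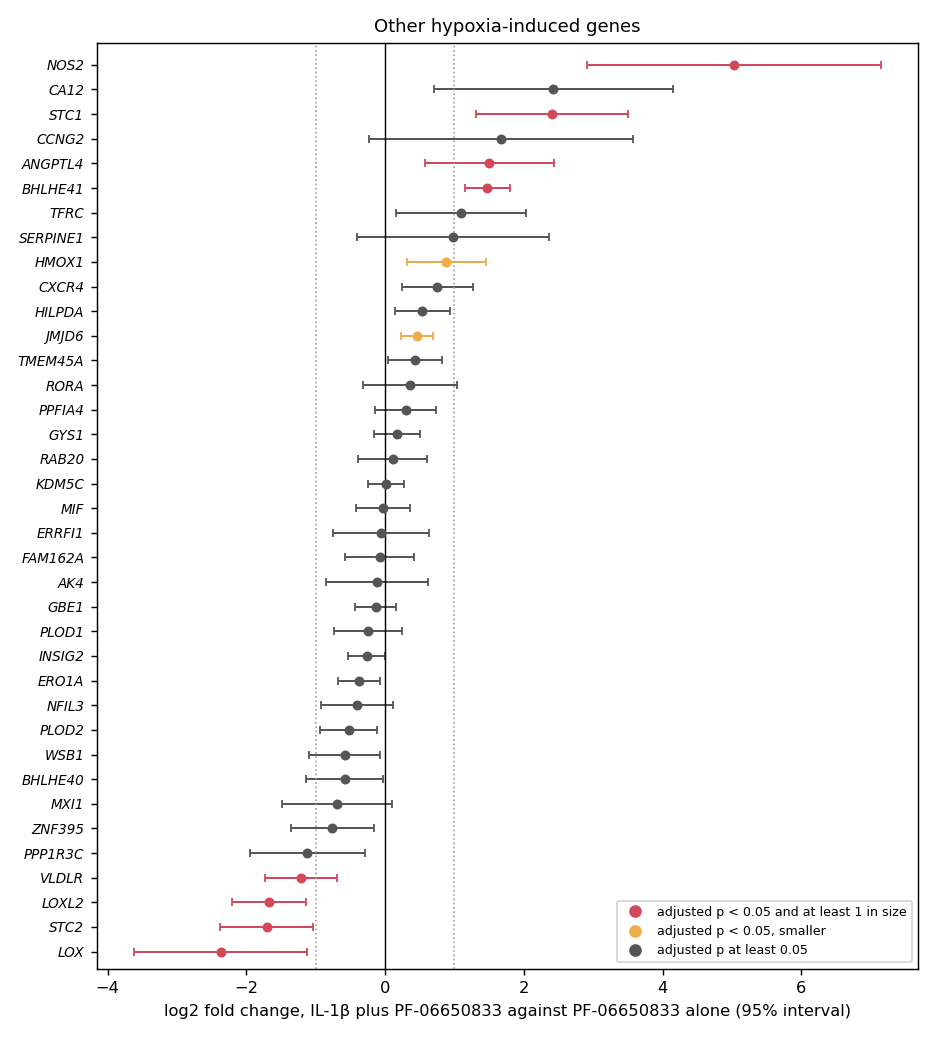
Log2 fold change (points) with its 95% interval (bars) from limma for 37 further hypoxia-induced genes that are not among the 40 members, with IL-1β plus PF-06650833 against PF-06650833 alone, in order of the fold change. The intervals are from the fit without the replicate block. The 8 called genes (red) lie toward both ends, 4 above 1 and 4 below -1, around a median of -0.03.

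Of 20 further regulators of HIF, 1 was called, against 6.68% of all genes. It was P4HTM, a transmembrane prolyl hydroxylase, which was lower in all 5 lines (log2 fold change -1.17, adjusted p = 0.0202 from limma). Of 23 tested further genes of sugar entry and glycolysis, 4 were called, 1 higher and 3 lower, against 6.68% of all genes. PGM1, which links glycogen to glycolysis, rose (log2 fold change 1.22), and the gluconeogenic enzymes FBP2 (-2.57) and PCK2 (-1.02) fell, each in the same direction in 5 of 5 lines, while LDHD, a mitochondrial lactate dehydrogenase, fell by 1.07 on the log2 scale and was lower in 4 of 5 lines (adjusted p of 0.00388 to 0.0357 for the 4 genes, from limma). Of 14 genes of pyruvate dehydrogenase and pyruvate entry, 0 were called in either fit of limma (5 had an unadjusted p below 0.05 in each). An adjusted p below 0.05 was found for 1 without the block and 3 with it, all of them higher, against 15.5% and 22.2% of all genes.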

How the data were processed

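The deposited table holds log2 values that the authors made from paired-end reads of 150 bp, quantified with Salmon 1.8 on EquCab3.0 after FastQC 0.11.9 and handled with DESeq2 1.36. Their lowest value, 3.43, and their shape are those of DESeq2's variance-stabilizing transformation, which the sources used here do not name. The values carry no depth per library, so no counting interval is given, and normalized counts were obtained by inverting that transformation and are approximate.

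The 17992 of 29196 genes that exceeded this lowest value in 5 or more of the 10 libraries were fitted with limma 3.58.1 in R 4.3.3 with a mean-variance trend and no term for the horse, and p-values were adjusted over all of them by the Benjamini-Hochberg method. The limma script was tested on simulated data, where it recovered 200 of 200 changed genes in the comparison of these 2 groups. That run checked that the script works. How many differences of the size seen in most members would be missed in the real libraries was not tested. Replicate numbers are tenocyte lines, each from 1 horse, and pair the samples: deviations from the group means correlated by 0.367 to 0.506 within lines. Between different lines the average was -0.11. That negative value follows from centring each group on its own mean and is no separate evidence for the pairing. A fit with the line as a block was the paired alternative. The other alternatives were another gene filter, normalization, threshold, pseudocount or variance model and leaving out libraries.

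Members with an adjusted p below 0.05 in either fit were given in full, and at most 4 called genes of each further list were named, by smallest adjusted p. The 40 members and all lists were chosen with earlier results of these data known. Figures were drawn with matplotlib 3.10.9.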

Additional observations from a re-analysis of the deposited data

Results flagged for a closer look

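In 150 groups of 5 libraries examined (80 of them the 40 members in each group), 6 had 1 library far from the rest, where chance flags about 1 in 20 groups, or 7.5. EGLN3 was at 9.33 in line 4 with IL-1β plus PF-06650833, the lowest, against 11.18 to 11.56 in the other lines. In the same library TFRC, the transferrin receptor, was the highest at 14.97, against 13.03 to 13.31. SLC2A1 was lowest in line 5 with IL-1β plus PF-06650833, at 11.94 against 12.79 to 12.99. PKM was highest in line 1 with IL-1β plus PF-06650833, at 17.00 against 16.70 to 16.77. With PF-06650833 alone, LDHB was lowest in line 3 at 11.98, against 12.49 to 12.69, and P4HA2 was highest in line 4 at 13.37, against 12.68 to 12.84. All are log2 values, and their cause was not tested.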

How the results depend on the processing

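PFKFB3, PDK4 and EPAS1 kept their call in all 33 settings run. The 5 members called, 5 higher and 0 lower, became 10 (9 higher, 1 lower) without a minimum fold change, 3 (3 higher) with the adjusted p held below 0.01, and 6 under the replicate block, which became 18 (14 higher, 4 lower) without a minimum fold change. Leaving out libraries or lines, with or without the block (the blocked versions were chosen after seeing the data), gave 3 to 7 members, 3 to 6 higher and 0 to 1 lower, the 1 lower being NDRG1 without line 3. Of all genes, 1202 were called (560 higher, 642 lower), 1486 under the replicate block, 2782 (1362 higher, 1420 lower) without a minimum fold change, 3996 (1969 higher, 2027 lower) when that block was used without the minimum, and 719 (345 higher, 374 lower) at an adjusted p below 0.01. Leaving out libraries or lines gave 762 to 1422 genes, 356 to 647 higher and 389 to 775 lower. VEGFA lost its call under quantile normalization (1.14, adjusted p = 0.0682 from limma), and EGLN3 in 2 of 5 blocked fits without a line. The block turned ADM into a call and changed no other member's. In 29 of 40 members the direction held throughout. Leave-out fits turned SLC2A1 (-0.0088 to 0.32), HK2 (-0.077 to 0.25, -0.017 in the block without line 2), GPI (-0.091 to 0.033, 0.00065 in the block without line 5), PFKL (-0.18 to 0.032), ENO1 (-0.0080 to 0.18), ENO2 (-0.48 to 0.21), CA9 (-0.11 to 0.17, -0.084 and -0.067 in the block without line 3 or 4), BNIP3 (-0.24 to 0.066), P4HA2 (-0.036 to 0.26) and DDIT4 (-0.47 to 0.033), and quantile normalization turned HK1 (-0.0097) and CA9 (-0.0044), as array weights did CA9 (-0.026). None of these 11 had passed the p threshold, and the cause was not tested. Without depth per library, the precision of low values such as those of PDK4 cannot be given.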

Other observations

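HIF3A, singled out after its values were seen, encodes a further HIF-α subunit. Its log2 values in lines 1 to 5 were 4.60, 5.75, 4.52, 4.14 and 4.40 with PF-06650833 alone and 5.58, 10.05, 5.34, 4.23 and 9.43 with IL-1β plus PF-06650833. Lines 2 and 5 rose by 4.30 and 5.03, the other lines by 0.10 to 0.98, and the fold change did not pass (adjusted p = 0.173 from limma, and 0.0657 with the replicate block). Lines 2 and 5 were also those with the largest rise of PDK4 (3.09 and 3.28, against 2.29 to 2.72) and the largest fall within a line of NDRG1 (-1.35 and -1.60, against -0.11 to -0.76). PDK4 and NDRG1 were set beside HIF3A after their values were seen. Of the other members called in either fit, PFKFB3, EGLN3 and ADM rose most in line 1, EPAS1 in line 4 and VEGFA in line 5. With 5 lines no relation between HIF3A, PDK4 and NDRG1 was tested.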
